A study of Mus musculus with 2 samples.

Results

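The genes described here are 33 genes of DNA replication and S phase, taken by symbol from a list of names. The rule used no measured values, but the list was chosen with earlier results of these data known. They are 33 of the 28692 genes in the deposited count tables, and each name matched exactly 1 row. By role, 8 act in licensing of replication origins, 4 in origin firing, 9 at the fork, 6 in nucleotide supply and 5 in chromatin and histone supply, and E2f1 is a transcription factor of the programme. The cells came from the peritoneal cavity of germ-free C57BL/6 mice, all male and 10 weeks old, in 2 groups. The WT library was a pool of 4 mice, and the Xbp1dIEC library a pool of 4 mice that lack Xbp1, which drives genes that relieve stress of the endoplasmic reticulum, in the intestinal epithelium. The Cre driver and the floxed allele are not named in the labels. For each pool 8700 cells were encapsulated for 3′ single-cell RNA sequencing on the 10x Chromium, in which each captured transcript is counted once by its unique molecular identifier (UMI). With 1 library per genotype no test between genotypes was possible, and every 95% interval here covers counting error only, not differences between mice. Intervals of levels and of their ratios treat each UMI as independent. UMIs of the 33 genes gathered in some cells, so those intervals also leave out the sampling of cells and are too narrow for it.

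The order of events in replication is well known. Helicase rings of the Mcm2 to Mcm7 proteins are loaded on origins before S phase, are then switched on by Cdc45, the GINS complex and Mcm10, and unwind DNA for primase, polymerases and the sliding clamp Pcna. Cells that enter the cycle release E2F factors from the retinoblastoma protein, and E2F sites lie in the promoters of many replication genes. Resident macrophages of the peritoneal cavity are known to maintain themselves by local division, as are B-1 cells, while B-2 and T cells there are mostly resting.

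The 7 cell populations were gated on marker UMIs, without reading the 33 genes. Large macrophages (Gata6, Timd4, Adgre1 and others) were 2922 WT and 2875 Xbp1dIEC cells, and Folr2/Retnla cells, named by their marker genes, were 317 and 432. B-1 cells were 538 and 845, B-2 cells 815 and 640 and T cells 289 and 232. Cd209a cells (69 and 72) and NK cells (17 and 23) were few. A gate is a range of marker UMIs and not a sharp type: 51 and 69 large macrophages lay within 1 UMI of their threshold, against 163 and 231 B-1 cells and 255 and 238 B-2 cells. The median large macrophage had 55 and 43 UMIs of its own markers and 0 of the B cell, T cell and NK cell markers. The libraries held 6204 and 6246 barcodes with 56229330 and 49703442 UMIs, and 58 barcodes occurred in both. Cells with 5% or more mitochondrial UMIs numbered 425 in WT and 1153 in Xbp1dIEC. Xbp1 stood at 78.8 and 83.9 CPM (UMIs per 1000000 UMIs) over all barcodes, which is no check of the deletion because the deleted tissue was not sampled.

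Promoters of 26 of the 33 genes were in the RefSeq table of build GRCm38.p6, each running from 250 bases before to 50 bases after an annotated start. Mcm4, Gins1, Gins2, Gmnn, Pole, Tipin and Exo1 had no entry there. The core E2F letters were searched as 4 forms on both strands. These were TTCCCGC, its variant TTCGCGC, a form with the letters TTGCCGC and another with TTGGCGC, and they can overlap each other so that a stretch of 10 bases may count as 2 matches. Of the 26 genes, 16 had a match in a promoter (61.5%), against 10.9% of all 27025 genes in the table, 64.7% of 51 other replication genes and 22.2% of 27 mitosis genes. The CCAAT box was in 61.5% of the 26, 41.1% of all genes and 77.8% of the mitosis genes. The cell cycle homology region, searched as TTTGAA, was in 11.5%, 20.2% and 66.7%. A gene with more than 1 entry was counted when any entry had a match, and a match describes letters in the window only. The promoters below belong to the 4 genes with the most UMIs in S-phase-positive large macrophages among those with an entry and a match, and E2F matches are in capitals. Of the 3 entries of Lig1, the one printed was picked for having the most matches. Mcm6 is at chr1:128359656-128359955 (minus strand, 5 matches), Lig1 at chr7:13278576-13278875 (plus, 2), Mcm5 at chr8:75109259-75109558 (plus, 3) and Mcm3 at chr1:20820263-20820562 (minus, 3), and each is written 5′ to 3′ on the gene's strand.
Mcm6: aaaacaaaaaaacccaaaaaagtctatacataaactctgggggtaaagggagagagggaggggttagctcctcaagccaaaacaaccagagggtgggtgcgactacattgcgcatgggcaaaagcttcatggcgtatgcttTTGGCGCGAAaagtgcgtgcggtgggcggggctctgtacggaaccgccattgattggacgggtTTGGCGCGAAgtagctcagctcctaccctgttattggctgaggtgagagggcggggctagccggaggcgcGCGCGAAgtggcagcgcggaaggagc
Lig1: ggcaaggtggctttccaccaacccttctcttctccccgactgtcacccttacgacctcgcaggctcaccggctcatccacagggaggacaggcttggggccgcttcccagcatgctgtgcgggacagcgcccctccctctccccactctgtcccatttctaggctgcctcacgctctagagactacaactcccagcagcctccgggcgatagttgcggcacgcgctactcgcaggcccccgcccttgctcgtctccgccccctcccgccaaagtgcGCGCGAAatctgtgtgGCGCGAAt
Mcm5: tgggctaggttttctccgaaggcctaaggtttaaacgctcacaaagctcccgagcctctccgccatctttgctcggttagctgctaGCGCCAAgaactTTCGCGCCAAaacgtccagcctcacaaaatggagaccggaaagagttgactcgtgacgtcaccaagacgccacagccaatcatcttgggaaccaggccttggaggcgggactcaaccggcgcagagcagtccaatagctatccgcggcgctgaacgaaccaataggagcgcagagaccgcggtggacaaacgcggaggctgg
Mcm3: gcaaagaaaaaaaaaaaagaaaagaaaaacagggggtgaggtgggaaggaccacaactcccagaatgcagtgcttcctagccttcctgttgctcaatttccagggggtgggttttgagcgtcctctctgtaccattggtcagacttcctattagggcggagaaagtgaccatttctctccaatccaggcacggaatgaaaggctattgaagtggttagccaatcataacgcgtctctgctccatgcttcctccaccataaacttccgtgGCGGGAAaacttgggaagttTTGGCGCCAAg
In the printed entries matches lay on both sides of the start. Those of Mcm5 began 164 to 149 bases before it, those of Lig1 26 to 42 bases after it, and those of Mcm6 ran from -109 to 24. In Mcm6, Mcm5 and Mcm3 some matches begin 3 bases apart and share letters, so that their capitals read as 1 longer block. Pcna, Slbp, Dut, Tk1, Tyms and E2f1 had an entry without any of the 4 forms, as did Mcm2, Cdc45, Mcm10 and Ung.

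The first comparison was of how many cells held UMIs of the set in each population. Each cell was thinned to 1000 UMIs, and a cell with 2 or more UMIs of the 33 genes was counted as S-phase-positive. In large macrophages 289 of 2922 WT cells were positive (9.89%, exact Clopper-Pearson interval 8.83 to 11) and 143 of 2875 Xbp1dIEC cells (4.97%, 4.21 to 5.83), a log2 ratio of Xbp1dIEC over WT of -0.99 (-1.29 to -0.70). In Folr2/Retnla cells 41 WT (12.9%, 9.44 to 17.1) and 35 Xbp1dIEC cells (8.10%, 5.71 to 11.1) were positive, a log2 ratio of -0.67 with an interval that reaches 0.01. The large macrophage intervals of the 2 libraries do not overlap, whereas those of Folr2/Retnla cells do.

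In lymphocytes the shares of the 2 libraries had overlapping intervals. B-1 cells were positive in 5.20% (3.49 to 7.43) and 4.73% (3.40 to 6.39), B-2 cells in 6.26% (4.69 to 8.15) and 5.31% (3.71 to 7.34), and T cells in 8.30% (5.39 to 12.1) and 7.76% (4.66 to 12.0). The log2 ratios were -0.14 (-0.87 to 0.61), -0.24 (-0.91 to 0.42) and -0.10 (-1.07 to 0.84), so a difference was not detectable at these cell numbers, and intervals this wide do not show that the libraries were alike. The intervals also leave out the random draw of the thinning. Another draw gave -0.69 (-1.39 to 0.01) in B-1, -0.42 (-1.08 to 0.21) in B-2 and 0.66 (-0.40 to 1.74) in T cells. In large macrophages it gave -1.24 (-1.56 to -0.93). Cd209a cells had 3 positive cells in each library and NK cells 2 and 3. Without thinning, 53.6% and 35.7% of large macrophages, 61.2% and 60.7% of B-1 cells and 48.1% and 43.5% of T cells had 2 or more UMIs, shares that carry each cell's depth. The median depth was 9622.5 and 7707 UMIs in large macrophages, 8165 and 8915 in B-1 cells, 4996 and 4763.5 in B-2 cells and 3586 and 3756.5 in T cells.

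**Figure D1:**
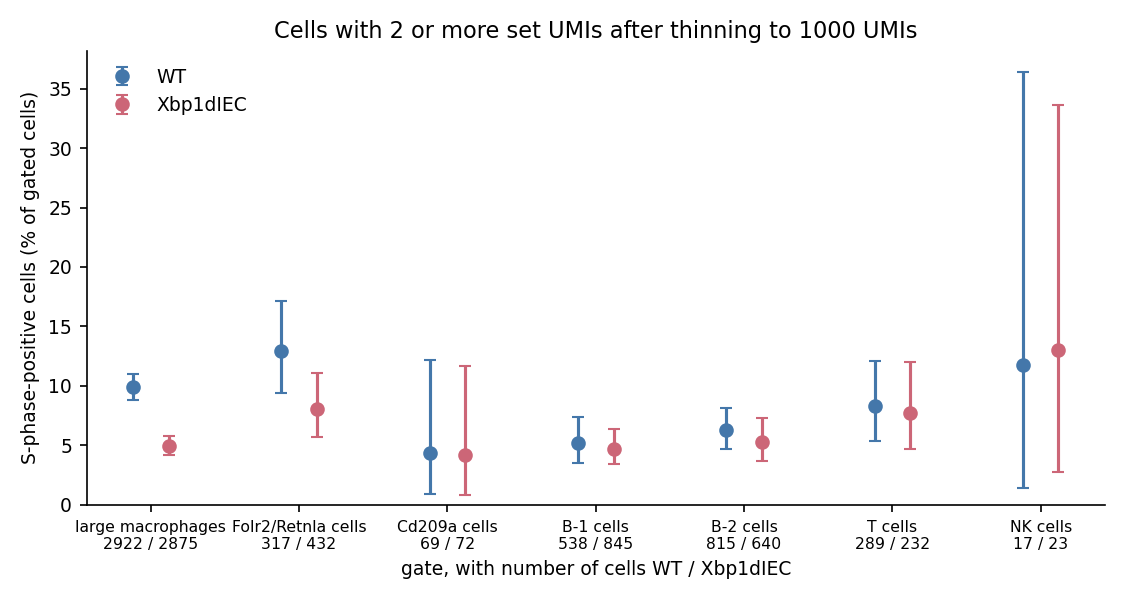
Share of cells with 2 or more UMIs of the 33 genes after thinning to 1000 UMIs (y axis, %), for 7 gates (x axis, with cell numbers) in WT (blue) and Xbp1dIEC (red); bars are exact 95% intervals. Large macrophages stand at 9.89% and 4.97% with separate intervals, and the intervals of the other gates overlap.

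A positive cell did not carry the same thing in every population. With 3 or more thinned UMIs, 5.68% of WT large macrophages (4.87 to 6.58) and 1.95% of Xbp1dIEC large macrophages (1.47 to 2.52) counted, and 7.89% and 4.63% of Folr2/Retnla cells. In B-1 cells this share was 1.49% and 1.66%, in B-2 cells 1.35% and 1.56% and in T cells 1.04% and 0 of 232, for which 3 counts would be 1.29% and the exact upper limit is 1.58%. The thinned UMIs per cell had a variance of 2.60 times the mean in WT large macrophages and 1.97 times in Xbp1dIEC. In Folr2/Retnla cells these values were 2.74 and 2.18. They were 1.39 and 1.81 in B-1 cells, 1.46 and 1.78 in B-2 cells and 1.94 and 1.09 in T cells. A value of 1 is that of UMIs falling at random with the same expected level in every cell. In WT T cells 1 cell held 13 thinned UMIs of the set, the most of any cell in the gates. The share at 2 or more UMIs in Xbp1dIEC large macrophages, 4.97%, lay below that of B-2 and T cells of either library and between those of the B-1 cells, so at that threshold it was not above a population known as mostly resting. That in WT large macrophages was above the B-1, B-2 and T cell shares but inside the interval of WT T cells. NK cells stood at 11.8% and 13%, from only 2 and 3 positive cells. RNA free in the droplets can also give UMIs: large macrophage markers stood at 138, 179 and 177 CPM in WT B-1, B-2 and T cells and at 119, 156 and 148 CPM in Xbp1dIEC, against 5742 and 5948 CPM in large macrophages. The part of free RNA in the shares was not tested, and a cell with 2 UMIs is not taken here as one that expresses the set.

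The members behind those UMIs also differed by population. Slbp, which binds the stem-loop of histone mRNA, and Dut, the enzyme that removes dUTP, made up 8.55% and 7.82% of all member UMIs in WT large macrophages, but 16.6% and 12.0% in WT B-2 cells and 15.8% and 11.7% in WT T cells. Slbp was at 53.0 CPM (50.4 to 55.7) in WT large macrophages, 51.7 CPM (45.7 to 58.3) in WT B-1, 62.4 CPM (55.7 to 69.6) in WT B-2 and 74.1 CPM (59.5 to 91.2) in WT T cells. Rpa2, a subunit of the single-strand binding protein RPA, had 20.5 CPM (18.9 to 22.2) in WT large macrophages, a lower 13.9 CPM (10.8 to 17.5) in WT B-1 cells, 25.2 CPM in WT B-2 cells and 32.5 CPM in WT T cells. The lymphocyte populations thus did not share 1 order against large macrophages for these genes. Gins2, Mcm10, Tyms, Rrm2 and Tk1 were instead higher in WT large macrophages than in WT B-2 or T cells. Rrm2, the small subunit of ribonucleotide reductase, stood at 23.6 CPM in WT Folr2/Retnla cells, 13.8 CPM in large macrophages, 6.64 CPM in B-1 cells, 4.99 CPM in T cells and 2.32 CPM in B-2 cells. Tk1, thymidine kinase, ran from 38.7 CPM through 23.1, 6.05 and 5.83 to 5.23 CPM in the same populations, in the order Folr2/Retnla, large macrophages, B-1, T and B-2, where the last 3 have overlapping counting intervals.

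**Figure D2:**
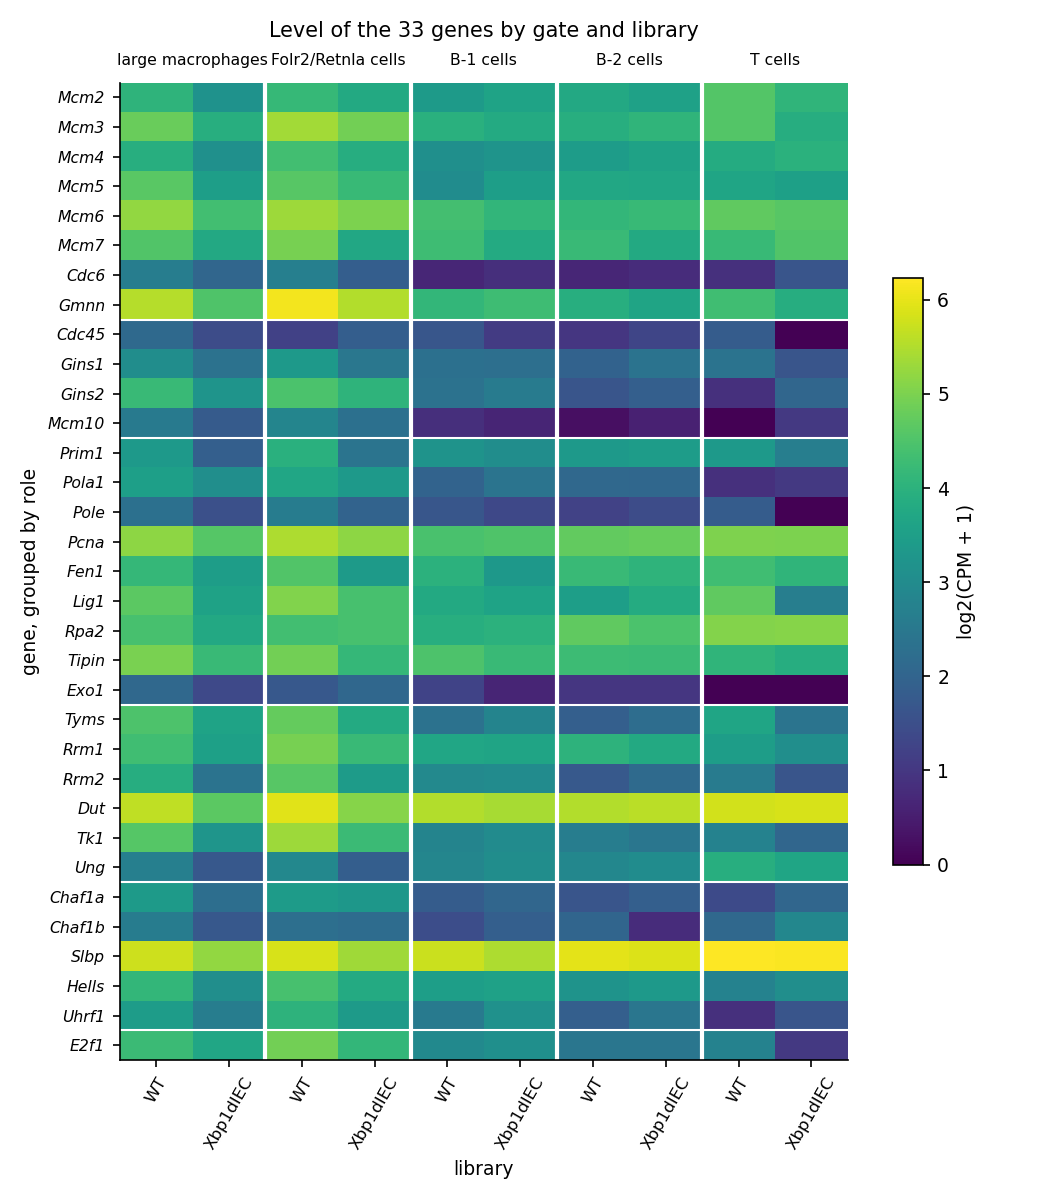
Level of each of the 33 genes (rows, by role) in 5 gates of each library (columns), as log2(CPM + 1) in colour. Slbp and Dut are at 24.2 CPM or more in every column, whereas Tk1 and Gins2 are higher in each of the 4 macrophage columns (8.37 CPM or more) than in any lymphocyte column (7.05 CPM or less).

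The second comparison asked whether the members occur in the same cells. Each gene in turn was left out of the call, cells were called positive on the other 32 genes, and the level of the left-out gene was compared between positive and other cells in the UMIs that the thinning had not drawn. In large macrophages all 33 genes were higher in positive cells in both libraries, where 54.5% of genes outside the set were in WT and 56.5% in Xbp1dIEC. In WT all 33 exceeded a log2 ratio of 2, where 1.51% of the 10977 genes outside the set did, and in Xbp1dIEC 30 did (1.67% of genes outside). The median log2 ratio was 2.76 in WT and 3.09 in Xbp1dIEC, against 0.04 and 0.07 for genes outside the set.

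Tk1 had the highest ratio in both libraries. In WT it stood at 118 CPM in positive cells and 9.20 CPM in other cells (log2 ratio 3.55, interval 3.44 to 3.93), and in Xbp1dIEC at 90.8 and 3.07 CPM (4.50, 4.41 to 5.38). Lig1, which joins Okazaki fragments, was at 120 and 10.1 CPM in WT (3.44) and at 92.4 and 5.68 CPM in Xbp1dIEC (3.81). Hells, a chromatin remodeller, was at 76.7 and 7.17 CPM in WT and at 66.3 and 3.12 CPM in Xbp1dIEC. Slbp had the lowest ratio, with 159 and 37.7 CPM in WT (2.05, 1.92 to 2.23) and 112 and 31.2 CPM in Xbp1dIEC (1.81, 1.56 to 2.11). Next to it were Pola1 (2.22) and Gins1 (2.24) in WT and Gins1 (1.87) in Xbp1dIEC. Pcna followed with 116 and 23.1 CPM in WT (2.27) and 76.3 and 20 CPM in Xbp1dIEC (1.88). Genes of other lists were higher in the same cells: 54 of 62 other replication genes with 20 or more UMIs passed a log2 ratio of 1 in WT (median 1.98), and 29 of 30 mitosis genes (median 2.14), beside 4.99% of genes outside the set. In Xbp1dIEC these were 47 of 55 (median 2.04) and 29 of 30 (median 2.77), beside 5.42%.

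In Folr2/Retnla cells all 26 WT and 24 Xbp1dIEC members with 20 or more UMIs not drawn by the thinning were higher in positive cells. Of genes outside the set 50.5% and 52.5% were higher, and the medians of the members were 2.40 and 2.60. The members counted in B-1, B-2 and T cells passed the same filter on undrawn UMIs. In B-1 cells 23 of 23 WT and 28 of 28 Xbp1dIEC members were higher (medians 2.37 and 2.21), beside 48.5% and 45.5% of genes outside the set, and 22 and 27 of them passed a log2 ratio of 1, beside 5.75% and 4.15%. Rrm2 showed it most in WT B-1 cells, with 85.7 CPM in positive and 2.31 CPM in other cells from 22 and 10 UMIs. In B-2 cells 18 of 19 WT members were higher (median 0.75) with 14 intervals that spanned 0, and 18 of 18 in Xbp1dIEC (median 1.84) with 5 such intervals. Of genes outside the set, 50.8% and 49.3% were higher in positive B-2 cells. The difference between the libraries was not tested, and few B-2 cells carry many UMIs of the set: 1 WT cell and 2 Xbp1dIEC cells had 6 or more after thinning. In WT T cells Pcna, Dut and Slbp were not compared, because fewer than 20 cells stayed positive without them. Of the 5 others with 20 or more undrawn UMIs, Rpa2 had 0 UMIs in positive and 27 in other cells. Mcm2, Mcm3, Mcm6 and Lig1 had 4 to 7 UMIs in positive cells with log2 ratios of 1.31 to 2.3. Of the 5 intervals, 3 spanned 0, and the share of genes outside the set is not given for T cells.

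**Figure D3:**
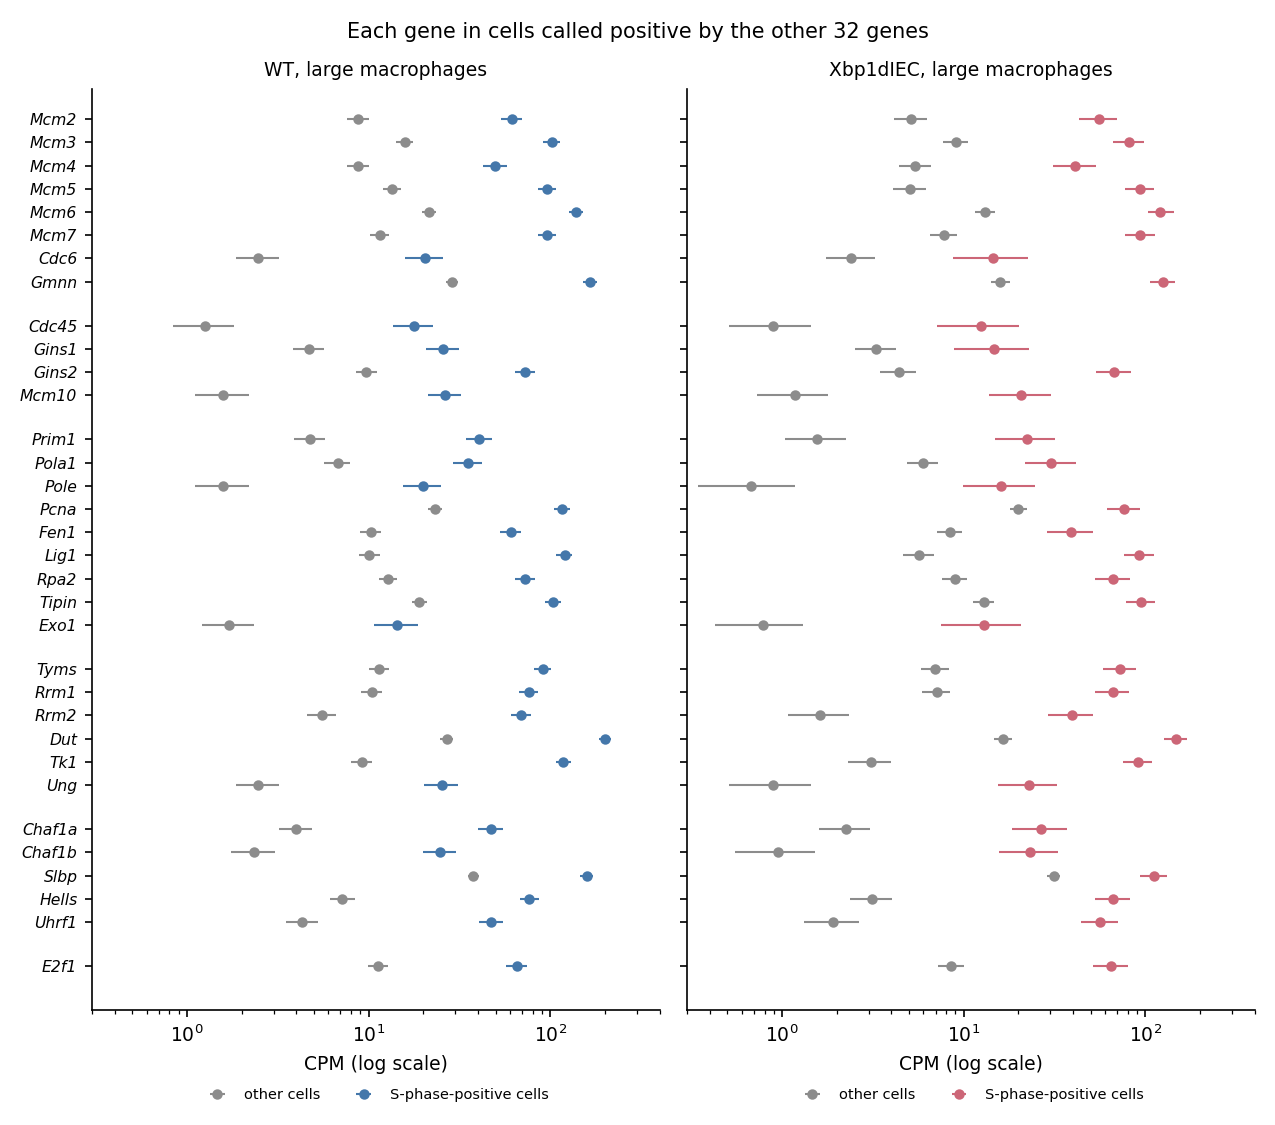
Level of each gene (CPM, log scale) in large macrophages called positive by the other 32 genes (coloured) and in the other large macrophages (grey), for WT (left) and Xbp1dIEC (right), with exact Poisson 95% intervals. Every gene lies to the right in positive cells, from a log2 ratio of 2.05 for Slbp to 3.55 for Tk1 in WT.

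A call on mitosis genes overlapped only in part with the S-phase call. Both calls ask for 2 or more UMIs after thinning, so a cell that expresses both lists can miss either call by sampling. The overlap therefore does not show separate sets of cells, and the part of missed calls in it was not tested. With the same rule on 30 mitosis genes, 184 WT (6.30%) and 86 Xbp1dIEC large macrophages (2.99%) were mitosis-positive, a log2 ratio of -1.07 (-1.46 to -0.70). In WT 193 cells were positive for the S-phase set alone, 96 for both and 88 for mitosis alone, and in Xbp1dIEC the counts were 107, 36 and 50. Cells with both were 33.2% (27.8 to 39.0) of S-phase-positive cells in WT and 25.2% (18.3 to 33.1) in Xbp1dIEC, with overlapping intervals. In B-1 cells 5 of 28 and 4 of 40 S-phase-positive cells were also mitosis-positive, and in B-2 cells 1 of 51 and 2 of 34.

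The third comparison was the level of each member between genotypes in the summed UMIs of a gate. In large macrophages the 33 genes summed to 620 CPM (611 to 629) for WT against 329 CPM (321 to 337) for Xbp1dIEC, or -0.91 on the log2 scale (-0.95 to -0.87). All 33 genes were lower in Xbp1dIEC, where 60.4% of all genes were, and 32 were lower by a log2 ratio of 0.5 or more, where 4.17% of 11549 genes tested were. The median log2 ratio was -0.81, beside -0.06 for all genes. Single-gene ratios have 1 CPM added to each level and their intervals do not, so for low genes the ratio can lie outside its interval. In bulk sums such as these, fewer cells of a kind and less RNA per cell cannot be told apart.

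Licensing genes had a median of -0.89 in large macrophages, and all 8 were lower by 0.5 or more. Of the helicase subunits, Mcm5 was at 23.9 CPM in WT and 10.3 CPM in Xbp1dIEC (log2 ratio -1.14, interval -1.44 to -1.0). Mcm6 was at 36.3 and 19.2 CPM, Mcm3 at 26.8 and 13.9 CPM, Mcm7 at 22.3 and 12.6 CPM, Mcm2 at 15.6 and 7.97 CPM and Mcm4 at 14.0 and 7.70 CPM. The 6 subunits thus ran from -0.78 for Mcm7 to the Mcm5 value. Gmnn, the inhibitor that blocks a second licensing in the same cycle, was at 45.7 and 21.7 CPM (-1.04, -1.23 to -0.92). Cdc6, the loader of the ring, was at 5.19 and 3.17 CPM (-0.57).

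Origin firing genes activate the loaded rings and had few UMIs, 33.2 CPM together in WT. Gins2 was at 17.7 and 8.37 CPM (-0.99), Gins1 at 7.28 and 4.12 CPM, Mcm10 at 4.91 and 2.44 CPM and Cdc45 at 3.34 and 1.72 CPM. All 4 were lower in Xbp1dIEC by 0.5 or more.

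Fork genes held both extremes among polymerase subunits. Prim1, the catalytic subunit of primase, was at 9.40 and 2.72 CPM (-1.49, -2.22 to -1.38), while Pola1, the catalytic subunit of its partner polymerase alpha, was at 10.4 and 7.47 CPM (-0.44, -0.77 to -0.21) and was the single member not lower by 0.5. Those counting intervals do not overlap, but they leave out the sampling of cells. Lig1 was at 24.1 and 11 CPM (-1.06), Tipin, a fork protection factor, at 30.3 and 17.7 CPM, and Fen1, which trims Okazaki fragments, at 16.9 and 10.0 CPM. Pcna was at 34.8 and 22.9 CPM (-0.58, -0.76 to -0.45) and Rpa2 at 20.5 and 12.6 CPM (-0.66). Pole, of polymerase epsilon, was at 3.90 and 1.86 CPM and Exo1, an exonuclease, at 3.31 and 1.58 CPM.

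Nucleotide supply had the lowest summed ratio of the role groups with more than 1 gene, at 131 and 61.1 CPM (-1.1, -1.19 to -1.01). Rrm2 was at 13.8 and 4.21 CPM (-1.51, -2.06 to -1.39), whereas its partner Rrm1, the large subunit, was at 18.9 and 10.7 CPM (-0.77, -1.05 to -0.60). Tk1 was at 23.1 and 8.46 CPM (-1.35, -1.69 to -1.21). Dut was at 48.5 and 24.2 CPM, Tyms, thymidylate synthase, at 21.4 and 11.3 CPM and Ung, which excises uracil from DNA, at 5.40 and 2.31 CPM. The 2 subunits of ribonucleotide reductase had counting intervals that do not overlap, with the sampling of cells left out.

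Among chromatin genes, Chaf1a and Chaf1b, subunits of the histone chaperone CAF-1, were at 9.58 and 3.80 CPM (-1.14) and at 5.12 and 2.31 CPM (-0.89). Hells was at 16.4 and 7.42 CPM (-1.05), and Uhrf1, which maintains DNA methylation behind the fork, at 9.86 and 5.21 CPM (-0.81). Slbp, the member with the most UMIs, was at 53.0 and 36.2 CPM (-0.54, -0.68 to -0.43). E2f1 was at 18 and 11.8 CPM (-0.57, -0.83 to -0.39). After Pola1, the ratios nearest to 0 with 1 CPM added were thus those of Slbp, Cdc6, E2f1 and Pcna. The added CPM draws a low gene such as Cdc6 toward 0, so its place in this order depends on it.

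**Figure D4:**
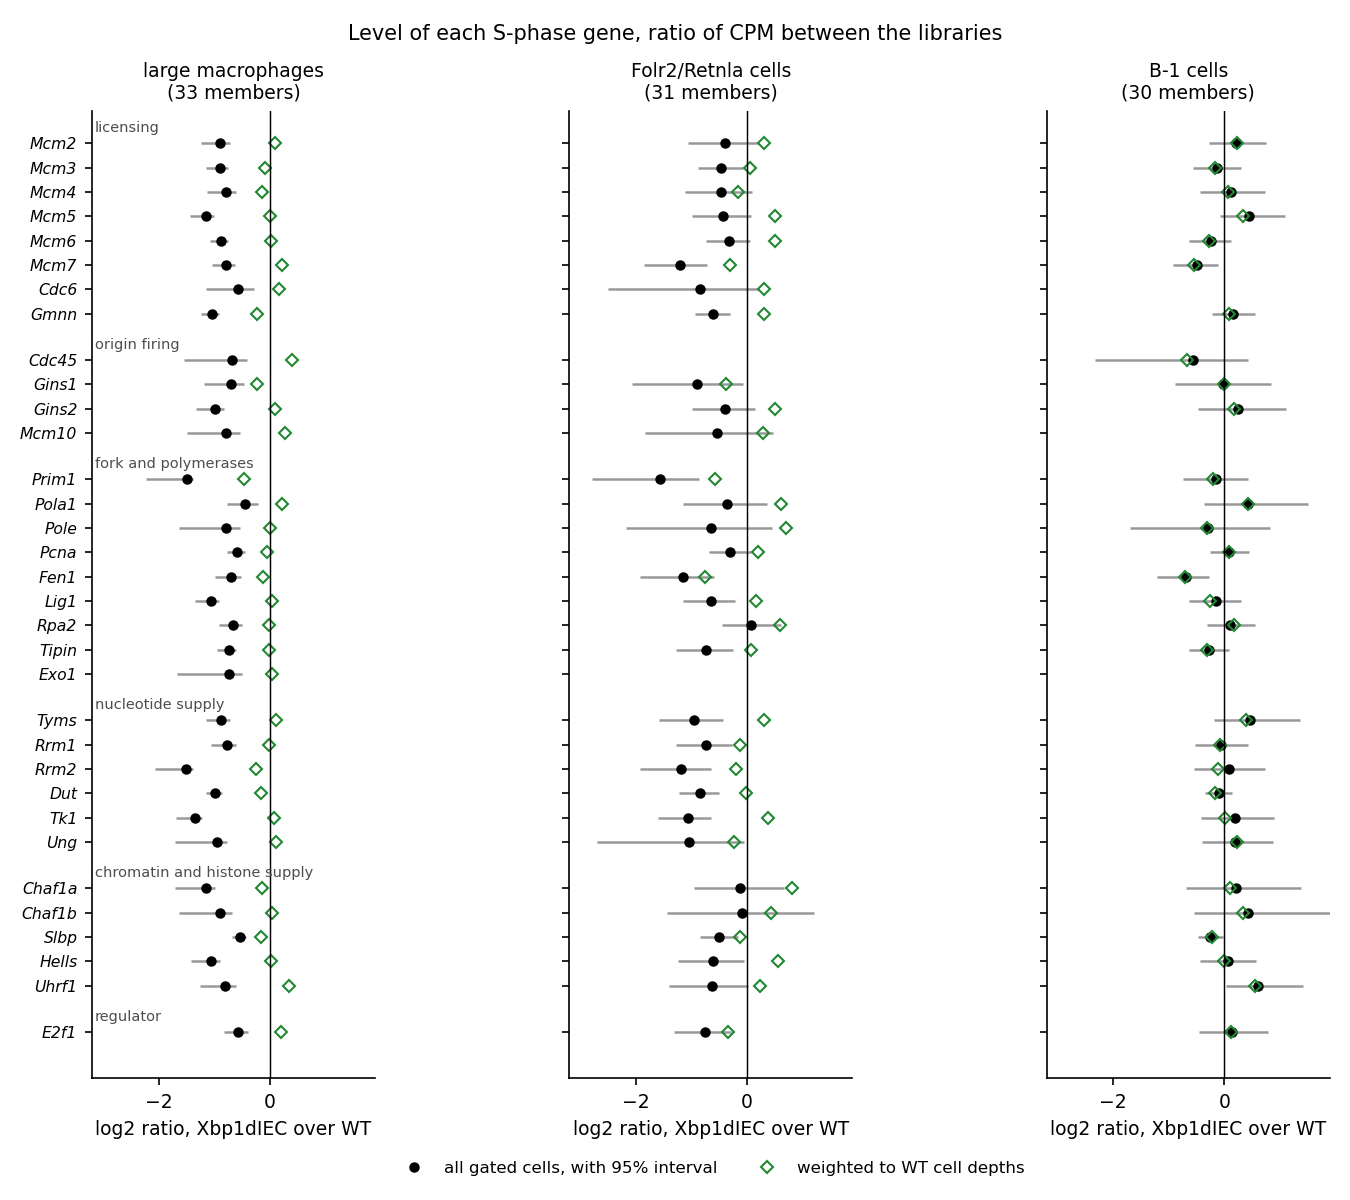
Log2 ratio of CPM, Xbp1dIEC over WT, of each member with 20 or more UMIs in large macrophages, Folr2/Retnla cells and B-1 cells; filled points use all gated cells, grey bars are counting intervals, and open diamonds weight both libraries to the WT spread of cell depths. In large macrophages filled points run from -1.51 to -0.44, while the diamonds centre near 0 with a median of 0.02.

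Depth per cell moved with these results. Positive large macrophages were deep cells, with a median of 14155 UMIs in WT and 10145 UMIs in Xbp1dIEC, against 9385 and 7644 UMIs in other cells, although every call was made on 1000 UMIs. In WT the share of positive cells was between 3.86% and 6.39% in every bin of depth up to 12000 UMIs, was 10.8% between 12000 and 15000 UMIs, and was 42.8% above 15000 UMIs. These deepest bins held 491 and 290 WT cells, but 135 and 58 Xbp1dIEC cells.

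Compared within bins of total UMIs, the difference between the libraries was larger than over all cells in the shallowest bin, smaller in 5 bins and of opposite direction in 1. Between 4000 and 12000 UMIs the log2 ratios of the shares were -0.45, -0.70, -0.45 and -0.12, and each of their intervals spanned 0. Between 12000 and 15000 UMIs 53 of 491 WT cells (10.8%, 8.19 to 13.9) and 31 of 135 Xbp1dIEC cells (23.0%, 16.2 to 31.0) were positive, a log2 ratio of 1.09 (0.40 to 1.76). Above 15000 UMIs the shares were 42.8% and 34.5% (-0.31, -1.07 to 0.38), and below 4000 UMIs 4.95% and 1.31% (-1.92, -3.85 to -0.19). When both libraries were weighted to the WT spread over these 7 bins, the shares were 9.89% and 10.1%, a log2 ratio of 0.02. Weighted to the Xbp1dIEC spread they were 6.20% and 4.97% (-0.32).

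The summed level behaved likewise. It was 620 and 612 CPM (-0.02) with WT weights and 390 and 329 CPM (-0.24) with Xbp1dIEC weights. With WT weights 15 of 33 members were below 0 and 0 were lower by 0.5 or more (1.54% of all genes), and Prim1 was the lowest at -0.46. The median of the members was 0.02, beside -0.04 for all genes. With Xbp1dIEC weights 31 of 33 were below 0 and 2 passed 0.5 (1.45% of all genes). Here the median was -0.24, beside -0.05 for all genes. The share of all genes below 0 is not given for either weighting. Whether the smaller number of deep Xbp1dIEC large macrophages reflects depth of capture or RNA content per cell cannot be told apart here. When the cells of each library were instead ranked by depth and cut into 5 equal groups, WT was higher in each, with log2 ratios of -0.83, -0.74, -0.45, -1.25 and -1.13 from the shallowest to the deepest. The intervals of the first 3 spanned 0, and in the deepest group 27.4% (23.8 to 31.2) and 12.5% (9.93 to 15.5) were positive.

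**Figure D5:**
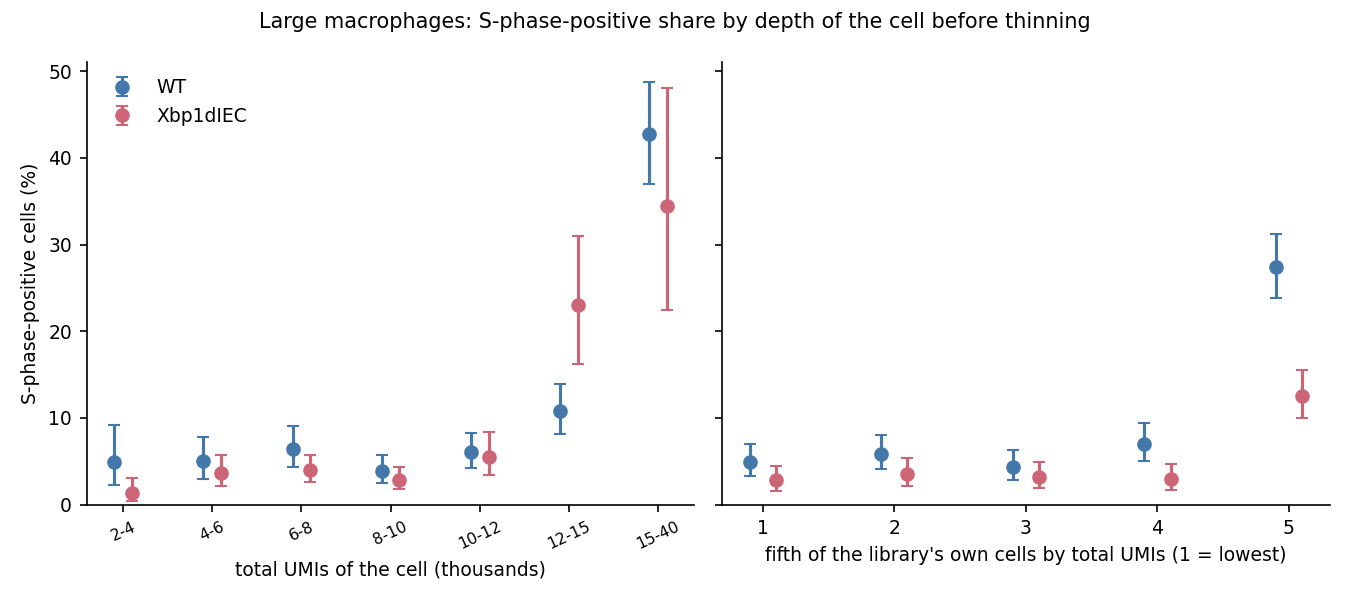
Share of S-phase-positive large macrophages (%, thinned to 1000 UMIs) by the total UMIs of the cell in 7 bins of unequal width (left) and in 5 equal groups by rank within each library (right), WT in blue and Xbp1dIEC in red, with exact 95% intervals. By total UMIs the libraries cross between 12000 and 15000 UMIs (10.8% and 23.0%), whereas by rank WT is higher in each group.

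Other measures moved with the large macrophage result. The median mitochondrial share was 3.03% in WT and 3.56% in Xbp1dIEC, and with cells under 5% only the summed log2 ratio was -0.87. The platelet marker list summed to 7367 and 5509 CPM in this gate. Over all barcodes Pf4, which macrophages also express, was at 4340 and 2850 CPM, while Ppbp and Itga2b were at or under 0.213 CPM, and the part of this list in the result was not tested. B cell markers summed to 62.7 and 48.9 CPM in the gate and T cell markers to 5.99 and 3.58 CPM.

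Within positive large macrophages the summed set reached 2443 CPM for WT (2392 to 2495) against 1940 CPM for Xbp1dIEC (1866 to 2017), or -0.33 on the log2 scale, and within other cells at 342 and 219 CPM (-0.64). Positive cells held 54.4% and 40.8% of the members' UMIs. In positive cells 7 of 33 members were lower by 0.5 or more, beside 10.3% of all genes, and in other cells 21 were, beside 3.46%. The levels use UMIs that the thinning had not drawn, but the calls used these same genes, so both values are descriptions. In positive cells Rrm2 was at 72.4 and 39.4 CPM and Chaf1a at 47.7 and 26.5 CPM, whereas E2f1, at 65.3 and 65.1 CPM, and Mcm2, at 61.1 and 59.8 CPM, were nearly level. Uhrf1, at 48.0 and 56.1 CPM (0.22, -0.19 to 0.63), was the single member with a ratio above 0.

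Folr2/Retnla cells had the highest summed level among the WT gates, 781 CPM (751 to 813), against 497 CPM (472 to 523) for Xbp1dIEC (log2 ratio -0.65, -0.75 to -0.56). Cdc45 and Exo1 had under 20 UMIs there, and of the other 31 members 30 were lower in Xbp1dIEC (57.2% of all genes) and 19 by 0.5 or more (9.27% of all genes), with a median of -0.63 against -0.06 for all genes. Prim1 was lowest at 14.5 and 4.23 CPM (-1.57, -2.79 to -0.86), followed by Mcm7 at 30.0 and 12.4 CPM (-1.21), Rrm2 at 23.6 and 9.77 CPM (-1.19) and Fen1 at 22.3 and 9.44 CPM (-1.16). Rpa2, at 19.4 and 20.5 CPM, was the member not lower. The median depth in this gate was 9888 UMIs in WT and 6899 UMIs in Xbp1dIEC. Weighted to the WT spread of depths over 5 bins, the summed log2 ratio was 0.18, with 11 of 31 members below 0. The weighted median was 0.24, beside -0.06 for all genes. Weighted to the Xbp1dIEC spread, the summed log2 ratio was -0.19, with 24 of 31 members below 0. Here the median was -0.15, beside -0.06 for all genes. The fewest cells in a bin were 25, and the weighted values have no interval. The share of all genes below 0 is not given for either weighting.

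In B-1 cells the set summed to 361 and 347 CPM (-0.06, -0.14 to 0.02). Of 30 members with 20 or more UMIs, 13 were lower (51.1% of all genes) and 17 higher in Xbp1dIEC. Fen1, at 15.0 and 8.95 CPM (-0.69, -1.22 to -0.28), and Cdc45, with 11 and 10 UMIs, were lower by 0.5 or more, beside 5.73% of all genes. Uhrf1, at 4.88 and 7.95 CPM (0.61, 0.03 to 1.42), was higher by 0.5, beside 5.99%. These 3 of 30 members are close to the share of all genes past that fold. Weighted to WT depths, 15 of 30 were below 0 and the summed ratio was -0.10. With Xbp1dIEC depths 14 were below 0 and the summed ratio was -0.08. The share of all genes below 0 is not given for either weighting. The median weighted to WT depths was 0.01, beside -0.01 for all genes.

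In B-2 cells the sum was 375 and 371 CPM (-0.02, -0.12 to 0.08), and 12 of 27 members were lower (56.6% of all genes), 0 of them by 0.5 or more (5.84% of all genes). Uhrf1, with 14 and 18 UMIs, was higher by 0.5 (4.42% of all genes). In T cells it was 469 and 407 CPM (-0.21, -0.40 to -0.02), and 11 of 15 members were lower (51.3% of all genes), 2 of them by 0.5 or more (11.5% of all genes). Those 2 were Lig1, with 30 and 5 UMIs or 25 and 5.32 CPM, and Mcm3, at 22.5 and 13.8 CPM. The 3 leading cells held 17.0% of the WT member UMIs in this gate, and in cells of 5000 to 10000 UMIs the ratio of the sums was 0.38. In Cd209a cells the sum was 605 and 235 CPM, but 59.1% of the WT member UMIs came from 3 cells, and the other cells stood at 268 and 213 CPM (-0.34, -0.75 to 0.08). The 8 members with 20 or more UMIs there were all lower, as were 58.1% of all genes. In NK cells, at 488 and 552 CPM from 28 and 41 UMIs, no member had 20 UMIs.

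Related lists were read in large macrophages beside the 33 genes. Of 63 other replication genes all had 20 or more UMIs. Below 0 were 61 (60.4% of all genes), and 35 were lower by 0.5 or more (4.17% of all genes). Their median log2 ratio was -0.54. Asf1b, a histone chaperone, had the lowest ratio at 22.5 and 9.19 CPM (-1.20), followed by Rad51ap1, a recombination factor, at 9.37 and 3.98 CPM (-1.06). The highest were Mcmbp, which binds Mcm proteins, at 40.0 and 43.5 CPM (0.12), Orc4 at 10.4 and 10.9 CPM (0.06) and Orc5 at 6.79 and 6.70 CPM (-0.02), subunits of the origin recognition complex. All 30 mitosis genes were below 0 and 29 by 0.5 or more (median -0.98), beside the same shares of all genes. Birc5, a chromosome passenger protein, was at 55.0 and 21.6 CPM (-1.31). Ccnb1, cyclin B1, was at 8.53 and 2.85 CPM and Cenpe, a kinetochore motor, at 12.4 and 4.75 CPM. Pttg1, the separase inhibitor securin, at 38.8 and 35.0 CPM (-0.14), was the mitosis gene not past 0.5, and the next nearest to 0 were Cks2 (-0.60) and Cenpa (-0.71). In B-1 cells 33 of 54 other replication genes and 16 of 23 mitosis genes were below 0, beside 51.1% of all genes.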

How the data were processed

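Each deposited table holds raw UMI counts, whole numbers for every gene in every barcode. Cell Ranger 2.2.0, Seurat 2.3.0 and the mm10 genome are listed without roles, per the submitters' processing notes. The gene annotation and the barcode filter were not given in any source used here. A barcode was kept at a minimum of 500 UMIs and 200 genes with a mitochondrial share below 10%, and doublets called by scrublet (scanpy 1.11.5, expected rate 5%) were removed: 144 in WT and 109 in Xbp1dIEC. This left 6055 and 6117 cells, of which 82.0% and 83.7% fell in a gate. Left out were 586 and 450 cells with markers of 2 lineages, 353 and 368 B cells of neither kind and 149 and 180 others.

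Gates asked for 10 UMIs of large macrophage or of Folr2/Retnla markers (the larger sum deciding), 5 of Cd209a cell markers, 6 of B cell markers with 2 of B-1 or B-2 markers, or 3 of T or NK cell markers, and for fewer than these of other lineages. The thresholds were set on marker UMIs after their spread was seen. Levels are UMIs summed over a gate, in CPM, and their intervals are exact Poisson ones. For log2 ratios 1 CPM was added to either level, the interval is the exact conditional binomial one of the plain ratio, and the genes tested were those with 20 or more UMIs in both libraries together. Thinning drew 1000 UMIs per cell without replacement, and no cell was shallower (lowest 2485). Ratios, intervals and thinning were tested on simulated data. Python 3.11.15, numpy 2.4.6, scipy 1.17.1 and pandas 2.3.3 were used.

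All 33 genes may be named. Of the other lists, the 3 lowest and 3 highest ratios in large macrophages were named, except 1 gene that is not reported here. The 33 genes, the lists and the tests were chosen with earlier results of these data known. The bins and rank groups of depth, the weighting by depth and the reading of 3 or more UMIs in each gate were chosen after the data were seen. Alternatives changed the thinning, the threshold of a positive cell, the gates, filters, scaling, the CPM added and the members.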

Additional observations from a re-analysis of the deposited data

How the results depend on the processing

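No paired analysis was possible because each genotype has 1 library. In large macrophages the log2 ratio of positive shares stayed below 0 under 11 of 12 alternatives. It was -1.54 with 3 or more UMIs per positive cell, -0.59 with 1 or more and, weighted to Xbp1dIEC depths, -0.32. Weighted to WT depths it was 0.02, which is close to no difference. The summed level was -0.85 with the stricter gate and with median-of-ratios scaling, -0.87 under 5% mitochondrial share, -0.60 in cells of 5000 to 10000 UMIs, and -0.02 and -0.24 weighted to WT and to Xbp1dIEC depths. The median was -0.49 with 10 CPM added, 0.02 with WT and -0.24 with Xbp1dIEC depths, and the count of members below 0 was 15 with WT depths. In Folr2/Retnla cells the share ratio was 0.15 with WT depths. The summed level was -0.56 with the looser gate, -0.46 in cells of 5000 to 10000 UMIs, 0.18 with WT and -0.19 with Xbp1dIEC depths, and the median 0.24 with WT depths. Members below 0 there were 17 of 18 in cells of 5000 to 10000 UMIs, 18 of 19 with 100 or more UMIs and 11 with WT depths. In B-1 cells the summed level was 0.11 under 5% mitochondrial share, and 6 of 9 members were below 0 with the stricter gate. In T cells the summed level was 0.07 with the stricter gate and 0.38 in cells of 5000 to 10000 UMIs, and 18 of 25 members with 5 or more UMIs were below 0. The counts below 0 in these alternatives have no share of all genes from the same alternative beside them. In Cd209a cells the summed level was 0.02 with the looser gate. Results in B-2 cells moved by less than their intervals, or by under 1.5 times for the count, in every alternative run. The cause of these moves was not tested, except that stricter filters leave fewer members or cells. Weighting by depth in large macrophages leans on 135 and 58 Xbp1dIEC cells in the 2 deepest bins. With 1 library per genotype, differences between mice cannot be told apart from differences between genotypes. The weighting by depth was chosen after seeing the data.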
